A study of Mus musculus with 9 samples.

Results

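The amino acid transporter genes of cultured mouse calvarial pre-osteoblasts were followed across libraries made after infection with a control adenovirus (Ad-C), a virus carrying Hif1a (Ad-Hif1a) or a virus carrying Hif2a (Ad-Hif2a). They were chosen by name, as the genes of the carrier families Slc1a, Slc3a, Slc6a, Slc7a, Slc36a, Slc38a and Slc43a, and came to 61 of the 40213 genes counted. The cells were primary cultures from the skull caps of 3-day-old wild-type pups, and each of the 3 groups held 3 RNA-seq libraries. Every culture, controls included, had received virus on day 3 and had been kept under normoxia in osteogenic medium (L-AA at 50 µg/ml and β-Gp at 5 mM) until harvest on day 6. The methods say of all the experiments that they were repeated independently, but the labels do not say of these libraries whether a group's replicates came from separate litters or cultures, so the p-values measure the spread between these libraries, part of which may be technical.

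Amino acid carriers of the solute carrier (Slc) families move amino acids across the plasma membrane and the lysosomal membrane. Some are exchangers that trade one amino acid for another, others are driven by sodium or protons, and the heteromeric carriers pair a light chain of the Slc7a family with a heavy chain of the Slc3a family. Osteoblasts take up glutamine, proline and other amino acids for collagen synthesis, and the factor ATF4, which acts on many carrier genes, is known as a regulator of amino acid import in these cells.

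Promoters of 5 members that changed are shown with the short motifs that HIF and ATF4 factors are known to bind. The RefSeq table (build GRCm38.p6) held 64 windows, each of 250 bases before and 50 after a start site, for 43 of the 61 members. The motifs searched on both strands were the HIF cores ACGTG and GCGTG and the ATF4 element TGATGNAAN. Of the member windows, 20 held ACGTG, 22 held GCGTG, 36 held either core and 5 held the ATF4 element. Of all 32851 windows in the table, 19.6% held ACGTG, 32.4% held GCGTG, 43.8% held either core and 3.95% held the ATF4 element. Of the members that changed, Slc7a2, Slc36a2, Slc6a2 and Slc6a8 had no entry. In each sequence below, running 5′ to 3′ on the gene's strand up to the start site or the nearest annotated exon, capitals mark the motif matches on either strand, so that CACGC and CACGT are cores read on the other strand. The first holds the ATF4 element as a pair (chr3:50443615-50443863, minus strand), the next 3 hold HIF cores (Slc6a17 at chr3:107518019-107518268, minus strand; Slc7a6 at chr8:106168604-106168853, plus strand; Slc1a4 at chr11:20332714-20332963, minus strand), and the last, of a gene that fell, holds no match in the stretch printed (chr14:54781931-54782136, minus strand).
Slc7a11: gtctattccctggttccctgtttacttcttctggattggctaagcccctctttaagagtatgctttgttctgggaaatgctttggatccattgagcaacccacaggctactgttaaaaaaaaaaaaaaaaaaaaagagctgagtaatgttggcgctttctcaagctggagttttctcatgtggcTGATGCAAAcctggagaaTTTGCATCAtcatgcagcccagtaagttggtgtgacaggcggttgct
Slc6a17: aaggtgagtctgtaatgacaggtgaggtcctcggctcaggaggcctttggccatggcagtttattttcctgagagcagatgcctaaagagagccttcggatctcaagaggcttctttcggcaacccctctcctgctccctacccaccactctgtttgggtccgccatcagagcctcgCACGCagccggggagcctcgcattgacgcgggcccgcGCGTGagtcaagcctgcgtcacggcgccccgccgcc
Slc7a6: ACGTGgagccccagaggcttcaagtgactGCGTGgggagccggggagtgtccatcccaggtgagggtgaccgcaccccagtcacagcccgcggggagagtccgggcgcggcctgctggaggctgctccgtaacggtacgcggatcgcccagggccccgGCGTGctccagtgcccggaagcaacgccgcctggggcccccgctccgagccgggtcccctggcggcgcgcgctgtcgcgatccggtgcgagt
Slc1a4: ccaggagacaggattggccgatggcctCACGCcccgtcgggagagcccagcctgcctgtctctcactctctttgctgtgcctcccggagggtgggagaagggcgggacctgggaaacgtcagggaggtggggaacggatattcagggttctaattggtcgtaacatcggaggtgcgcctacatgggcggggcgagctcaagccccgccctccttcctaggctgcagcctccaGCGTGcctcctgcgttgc
Slc7a8: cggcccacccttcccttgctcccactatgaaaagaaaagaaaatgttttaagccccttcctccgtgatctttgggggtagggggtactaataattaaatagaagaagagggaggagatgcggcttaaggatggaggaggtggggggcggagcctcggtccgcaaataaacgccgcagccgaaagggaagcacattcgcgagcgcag
The Slc7a11 elements lay 66 to 58 bases before the start site on the gene's strand and 48 to 40 bases before it on the other strand. The Slc1a4 window also held an ATF4 element on the other strand, from 5 bases before the start site to base 4 after it, which runs past the stretch printed and is not capitalised. Of the other members that fell, Slc38a7 held ACGTG on both strands between 34 and 29 bases before a start site, Slc38a4 held GCGTG 15 to 11 bases before one of its start sites, and the Slc6a12 windows held none of the motifs, so HIF cores lay in windows of members that rose and of members that fell. A match is a description of the sequence, and binding was not measured.

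Library totals ran from 14372589 to 18623403 counts, and levels are given as CPM, the usual depth-scaled counts, with TMM factors of 0.956 to 1.03. Hif1a was at 193, 190 and 186 CPM in the Ad-C libraries and at 1239, 1928 and 2322 CPM in the Ad-Hif1a libraries. Epas1, the gene of HIF-2α, was at 47.1, 41.9 and 48.7 CPM in the Ad-C libraries and at 1994, 2179 and 822 CPM in the Ad-Hif2a libraries. Each gene was also above Ad-C with the other vector, Epas1 at 407 to 678 CPM with Ad-Hif1a and Hif1a at 447 to 584 CPM with Ad-Hif2a. Ad-Hif1a replicate 1 and Ad-Hif2a replicate 3 stood apart from the other 4 vector libraries on the second principal component (11.4 and 56.5 against -35.7 to -15.4), and in both the mitochondrial share of counts was low (2.95% and 2.82%, against 3.69% to 5.77% in the other vector libraries and 5.92% to 6.37% in Ad-C). By chi-square per degree of freedom between library pairs, Ad-Hif2a replicate 3 lay far from its group (125 and 185, against 30.3 for the other pair). In Ad-Hif1a the values were 29.5 (replicates 1 and 2), 26.8 (2 and 3) and 94.9 (1 and 3), so replicate 2 lay between the others. Fits without both libraries, which were chosen on these same data, leave 2 in each vector group and are descriptions. Osteoblast lineage markers, 10 of 10 tested, summed to 68000 to 73500 CPM in Ad-C, 60900 to 62800 in the Ad-Hif1a and 53100 to 62300 in the Ad-Hif2a libraries. Among them 1 rose and 3 fell with Ad-Hif1a, and 1 rose and 4 fell with Ad-Hif2a. Markers of some other cells also moved with the groups. The 12 macrophage markers summed to 3320 to 3560 CPM in Ad-C, 1400 to 1540 in the Ad-Hif1a and 1410 to 1670 in the Ad-Hif2a libraries (8 and 7 of 12 fell, none at 0), and the 9 skeletal muscle markers to 61.4 to 77.3, 9 to 11.2 and 4.3 to 8.28 CPM, with Myod1 at 0 (of 4 tested, 1 rose and 2 fell with each vector). The endothelial markers, all low, summed to 5.27 to 5.46, 2.43 to 2.67 and 2.59 to 3.66 CPM (1 rose and 1 fell with Ad-Hif2a). The sums lay near or overlapped with Ad-C for osteoclast markers (180 to 190, 183 to 197 and 192 to 203 CPM) and smooth muscle and pericyte markers (2240 to 2410, 2300 to 3420 and 2180 to 3420 CPM). Among these, 1 osteoclast marker rose with each vector, and 1 smooth muscle and pericyte marker fell with Ad-Hif2a. Neural and glial markers summed to 14.2 to 16.2, 9.3 to 12.1 and 10.3 to 17 CPM (1 fell with each vector), and erythroid markers to at most 1.82 CPM. Their part in the changes below was not tested. In such bulk samples fewer cells of a type and less RNA per cell cannot be told apart.

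The 61 genes summed to 1560 to 1630 CPM in Ad-C, 1510 to 1730 in the Ad-Hif1a and 1470 to 1800 in the Ad-Hif2a libraries, so the groups overlapped. Of the 61, 34 passed the filter on low counts and were tested. Of those 34, Slc36a2 reached the filter level of 0.573 CPM in no Ad-C library, Slc7a3 in 1 and Slc6a2 in 2, so these 3 needed the vector libraries to pass. Of the 27 not tested, 7 had no count in any library (Slc7a12, Slc7a15, Slc6a11, Slc6a21, Slc6a5, Slc38a5 and Slc36a3), which allows up to 3 counts, or 0.16 to 0.218 CPM per library. The largest sums over the 9 libraries among the rest were 76 counts for Slc6a7 (a proline carrier), 47 for Slc6a15, 40 for Slc1a1, 36 for Slc6a13, 28 for Slc1a7 and 25 for Slc7a13. Slc38a3 had 13, Slc7a14 had 11 and Slc3a1, the other heavy chain, had 8. Slc38a8 and Slc6a19 had 5 each, Slc6a4 had 4, Slc6a3 had 3, Slc38a11, Slc6a14 and Slc7a10 had 2 each, and Slc6a16, Slc6a18 and Slc7a9 had 1 each.

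Per kilobase of exon, Slc38a10 and Slc38a2 led the Ad-C libraries. The level of Slc38a10, a poorly characterised member of the sodium-coupled neutral family, was 60.5 ± 0.727 CPM per kb (SD, n = 3), and that of Slc38a2 (SNAT2), an importer of small neutral amino acids, was 57.3 ± 2.15 CPM per kb. Slc6a6, the taurine carrier, followed at 31.3 ± 1.14 CPM per kb, then the heavy chain gene Slc3a2 at 25.8 ± 0.692 CPM per kb and the glutamate carrier Slc1a3 (GLAST) at 14.8 ± 0.681 CPM per kb. These 5 did not overlap with their neighbours in the order. Slc7a5 (LAT1), at 13.5 ± 0.364 CPM per kb, and Slc7a8 (LAT2), at 13.1 ± 0.86 CPM per kb, overlapped with each other, and Slc7a8 also with Slc6a8 at 12.7 ± 0.684 CPM per kb. From place 9 to place 25 the levels ran down from 9.98 (Slc38a7) to 2.35 CPM per kb (Slc6a12), with most neighbours overlapping. At the foot of the order stood Slc7a11 at 0.237, Slc1a2 at 0.137, Slc7a3 at 0.114, Slc6a2 at 0.0898 and Slc36a2 at 0.06 CPM per kb. The lengths were summed exons of GENCODE M21 on GRCm38, whereas the authors counted on GRCm39.

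**Figure D1:**
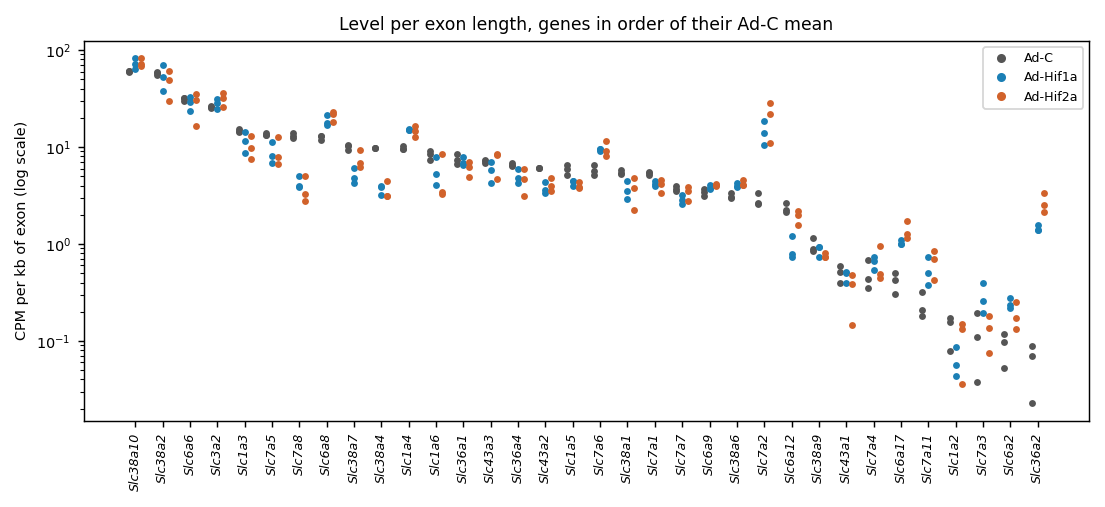
Level per exon length (TMM-scaled CPM per kb, log axis) of the 34 tested amino acid transporter genes, 1 point per library, in order of their Ad-C mean. Slc38a10 and Slc38a2 stand highest in Ad-C at 60.5 and 57.3 CPM per kb, and Slc7a2 and Slc36a2 leave the order in the vector libraries.

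With Ad-Hif1a, 10 of the 34 tested carriers passed the test (adjusted p under 0.05, edgeR quasi-likelihood test, Benjamini-Hochberg over all 14413 genes tested), 6 of them higher and 4 lower, against 11.3% of all genes tested called in that comparison (6.04% higher, 5.22% lower). The rise was largest for Slc36a2, Slc7a2, Slc6a2 and Slc6a17, and the fall for Slc7a8, Slc38a4, Slc6a12 and Slc38a7. With Ad-Hif2a, 9 of 34 passed, 7 higher and 2 lower, against 15.6% of all genes (7.87% higher, 7.72% lower). Over the tested carriers the median log2 fold change was -0.12 with Ad-Hif1a and -0.26 with Ad-Hif2a, where all genes tested had medians of 0.01 and 0.01. The 3 libraries of a group lay wholly above or below those of Ad-C for 22 carriers with Ad-Hif1a (50.4% of all genes did so) and for 21 with Ad-Hif2a (49.5%). Slc36a2 and Slc6a2, which needed the vector libraries to pass the filter, were among the 6 higher with Ad-Hif1a, and Slc36a2 among the 7 with Ad-Hif2a. When at least 10 counts were required in every library, 8 of 29 carriers passed with Ad-Hif1a (4 higher, 4 lower). With Ad-Hif2a 8 of 29 did (6 higher, 2 lower). Both comparisons share the Ad-C libraries. Their counts depended on single libraries: with Ad-Hif1a 2, 4 and 3 carriers passed without Ad-C replicates 1, 2 and 3, 5 and 3 when Ad-Hif1a replicates 1 and 2 were left out, and 20 when Ad-Hif2a replicate 3 was. With Ad-Hif2a 5 passed without any 1 of Ad-C replicates 1, 2 and 3, Ad-Hif1a replicate 2 and Ad-Hif2a replicate 1, and 14 when Ad-Hif2a replicate 3 was left out. Without both libraries that stood apart, 15 passed with Ad-Hif1a (7 higher, 8 lower) and 14 with Ad-Hif2a (8 higher, 6 lower). Each vector group then held 2 libraries.

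**Figure D2:**
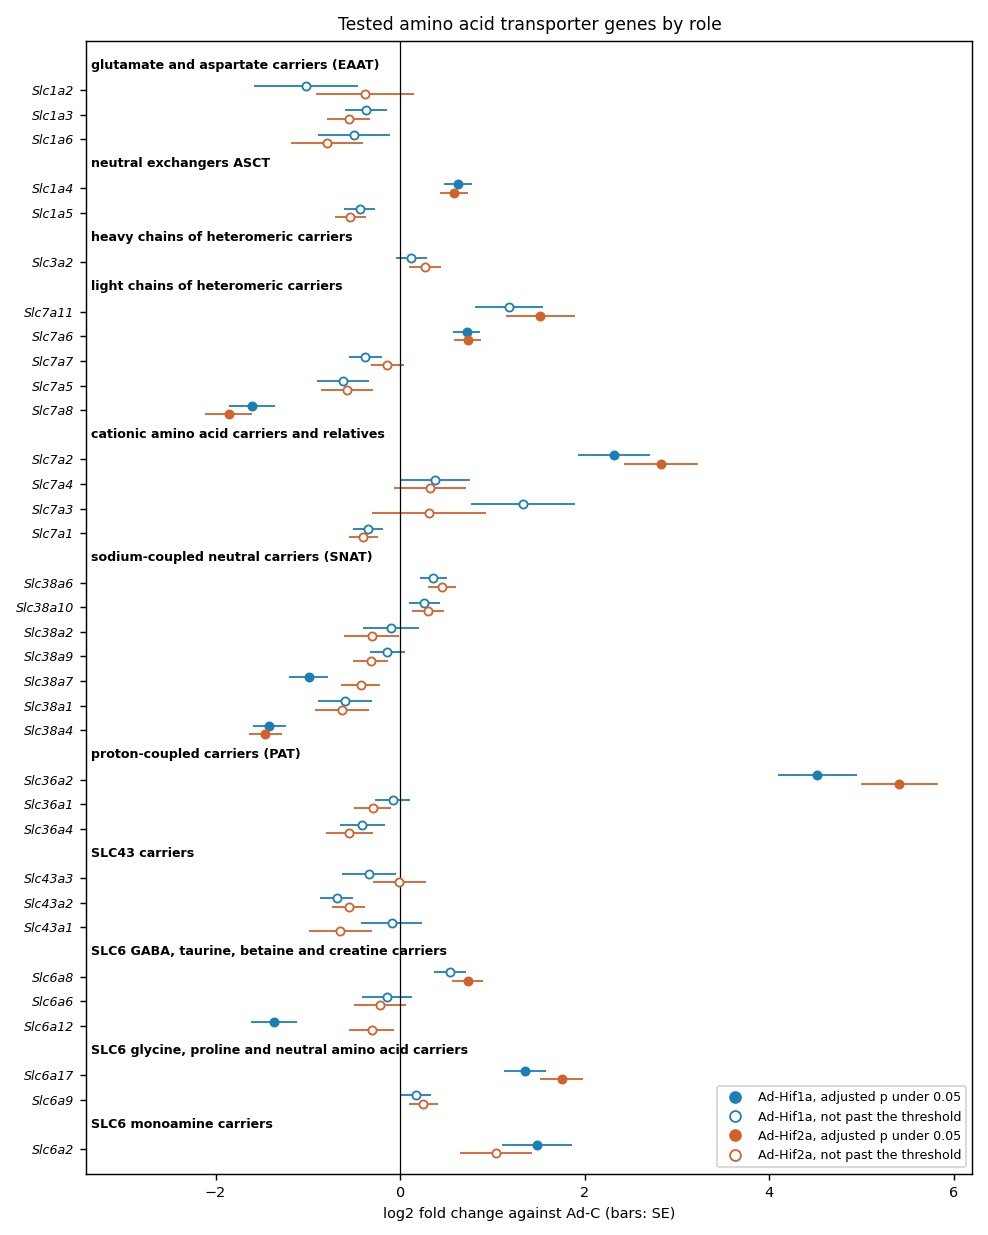
Log2 fold change against Ad-C (bars, SE) of the 34 tested carriers grouped by role, for Ad-Hif1a (blue) and Ad-Hif2a (orange), filled where the adjusted p is under 0.05. Slc36a2 lies farthest to the right, at 4.52 and 5.41, and Slc7a8 farthest to the left among the filled points, at -1.61 and -1.86.

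Among the cationic amino acid carriers, Slc7a2 rose strongly with both vectors. Slc7a2 (CAT2) imports arginine, lysine and ornithine and is known as the inducible carrier that feeds arginine to nitric oxide synthase and arginase. It was at 22.5, 22.8 and 29.2 CPM in the Ad-C libraries, 91.1, 120 and 161 CPM with Ad-Hif1a and 246, 189 and 95.9 CPM with Ad-Hif2a. All 6 vector libraries lay above the Ad-C libraries, and the lowest Ad-Hif2a value was that of replicate 3, the library that stood apart. The log2 fold changes were 2.32 with Ad-Hif1a (adjusted p = 0.0111, SE 0.39) and 2.83 with Ad-Hif2a (adjusted p = 0.00455, SE 0.40). With Ad-Hif1a the adjusted p was 0.0815, 0.0668 and 0.061 without Ad-C replicates 1, 2 and 3 and 0.0577 without Ad-Hif1a replicate 2, whereas with Ad-Hif2a the call held without each of the 9 libraries. In GENCODE M21 Slc7a2 overlaps Gm26584 on the opposite strand, and whether the counting used strand is not given in the sources used here, so reads of the pair cannot be told apart.

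Slc7a1 (CAT1), the widely expressed carrier of the same amino acids, did not follow. Its levels were 38.9, 36.5 and 39.2 CPM in Ad-C, 28.7, 29.9 and 31.7 CPM with Ad-Hif1a and 24.3, 33.0 and 29.9 CPM with Ad-Hif2a. All vector libraries lay below Ad-C, at log2 fold changes of -0.35 (adjusted p = 0.211, SE 0.16) and -0.40 (adjusted p = 0.122, SE 0.16). Slc7a4, a relative, had log2 fold changes of 0.38 and 0.32 (adjusted p = 0.549 and 0.566). Slc7a3 (CAT3) was at 0.11 to 1.16 CPM throughout, and its pooled counts were 18 in Ad-C, 42 with Ad-Hif1a and 19 with Ad-Hif2a.

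Of the heteromeric carriers, whose light chains set the substrate, 5 light chains and 1 heavy chain were tested. Slc7a8 fell with both vectors and Slc7a6 rose with both. Slc7a8 (LAT2), an exchanger of large and small neutral amino acids, was at 57.5, 50.5 and 53.1 CPM in Ad-C, 16.1, 15.9 and 20.6 CPM with Ad-Hif1a and 13.3, 20.5 and 11.2 CPM with Ad-Hif2a. The groups did not overlap, with every vector library below every Ad-C library. The log2 fold changes were -1.61 (adjusted p = 0.00778, SE 0.25) and -1.86 (adjusted p = 0.00381, SE 0.25). The Ad-Hif2a call held without each of the 9 libraries, and with Ad-Hif1a the adjusted p was 0.0668 and 0.0629 without Ad-C replicates 1 and 3 and 0.0625 without Ad-Hif1a replicate 2.

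Slc7a6 (y+LAT2), which exchanges arginine for glutamine and sodium, was at 19.5, 21.1 and 24.4 CPM in Ad-C, 34.4, 35.9 and 36 CPM with Ad-Hif1a and 30.5, 34.2 and 43.7 CPM with Ad-Hif2a. Every vector library was above every Ad-C library. Its log2 fold changes were 0.72 (adjusted p = 0.0247, SE 0.15) and 0.73 (adjusted p = 0.0185, SE 0.15). The call with Ad-Hif1a was lost without Ad-C replicates 1, 2 and 3 (adjusted p = 0.171, 0.13 and 0.144) and Ad-Hif1a replicates 1 and 2 (0.119 and 0.176), and that with Ad-Hif2a without Ad-C replicates 1, 2 and 3 (0.135, 0.0938 and 0.115), Ad-Hif1a replicate 2 (0.0584) and Ad-Hif2a replicate 1 (0.0544).

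Slc7a11 (xCT) imports cystine in exchange for glutamate and is a textbook ATF4 target, with the element pair shown above. It was at 1.77, 2.07 and 3.15 CPM in Ad-C, 3.74, 5.00 and 7.20 CPM with Ad-Hif1a and 6.89, 8.28 and 4.22 CPM with Ad-Hif2a. The vector libraries lay above Ad-C without overlap, though the level stayed low. It rose with Ad-Hif2a, at a log2 fold change of 1.52 (adjusted p = 0.0352, SE 0.37), and stood at 1.18 with Ad-Hif1a (adjusted p = 0.0921, SE 0.37). The Ad-Hif2a call was lost without Ad-C replicates 1, 2 and 3 (adjusted p = 0.185, 0.139 and 0.09), Ad-Hif1a replicates 1 and 2 (0.0503 and 0.0717) and Ad-Hif2a replicates 1 and 2 (0.124 and 0.1). The Ad-Hif1a difference passed without Ad-Hif2a replicate 3 (adjusted p = 0.000926), without both libraries that stood apart (0.000745) and with no replicate block (0.0457). The fit without both libraries left out Ad-Hif1a replicate 1, the nearest of its group to Ad-C, so that fit does not test the rise.

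Slc7a5 (LAT1), the main importer of leucine and other large neutral amino acids in growing cells, was at 46.8, 46.4 and 48.8 CPM in Ad-C, 39.5, 28.2 and 24.2 CPM with Ad-Hif1a and 23.6, 27.7 and 44.5 CPM with Ad-Hif2a. All vector libraries lay below Ad-C, and those nearest to it were Ad-Hif1a replicate 1 and Ad-Hif2a replicate 3, the libraries that stood apart. The log2 fold changes were -0.62 (adjusted p = 0.213, SE 0.28) and -0.58 (adjusted p = 0.185, SE 0.28). Without these 2 libraries they were -0.87 (adjusted p = 0.000183) and -0.89 (adjusted p = 0.000137), and without Ad-Hif2a replicate 3 alone -0.65 (adjusted p = 0.00995) and -0.95 (adjusted p = 0.00464). Leaving out the libraries nearest to Ad-C enlarges a difference by construction, so these fits do not test the fall of Slc7a5. Its partner Slc3a2, the CD98 heavy chain, was at 75.8, 77.8 and 80.0 CPM in Ad-C, 94.1, 85.2 and 74.0 CPM with Ad-Hif1a and 96.4, 78.6 and 108 CPM with Ad-Hif2a. The groups overlapped, at log2 fold changes of 0.12 (95% interval -0.28 to 0.51) and 0.27 (-0.12 to 0.67). Slc7a7 (y+LAT1) lay between 6.80 and 10.3 CPM in all libraries and did not pass, at -0.38 (adjusted p = 0.241) and -0.14 (adjusted p = 0.583). Its Ad-Hif1a libraries lay below Ad-C, and its Ad-Hif2a libraries overlapped with Ad-C. Slc7a7 overlaps Oxa1l, at 478 to 606 counts, on the opposite strand.

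The pair of ASCT exchangers of small neutral amino acids parted. Slc1a4 (ASCT1), which carries serine, alanine and cysteine, rose with both vectors, from 39.8, 37.2 and 37.6 CPM in Ad-C to 59.4, 58.8 and 59.8 CPM with Ad-Hif1a and 49.9, 64.5 and 58.0 CPM with Ad-Hif2a. The groups did not overlap with Ad-C. The log2 fold changes were 0.63 (adjusted p = 0.0361, SE 0.15) and 0.58 (adjusted p = 0.0392, SE 0.15). These calls were near the threshold: with Ad-Hif1a the adjusted p was 0.0555 to 0.2 without each of Ad-C replicates 1, 2 and 3 and Ad-Hif1a replicates 1, 2 and 3, and with Ad-Hif2a it was 0.0639 to 0.196 without each of Ad-C replicates 1, 2 and 3, Ad-Hif1a replicates 1 and 2 and Ad-Hif2a replicates 1 and 2. They were also lost with no filter on low counts (0.0634 and 0.0782) and, with Ad-Hif2a, with no composition factors (0.0524) or only the 6 libraries compared (0.0962). Slc1a5 (ASCT2), the glutamine exchanger, was at 16.2, 14.2 and 17.9 CPM in Ad-C, 10.9, 12.4 and 12.3 CPM with Ad-Hif1a and 10.4, 12.1 and 10.8 CPM with Ad-Hif2a. It was lower in all vector libraries without passing, at -0.44 (adjusted p = 0.15, SE 0.17) and -0.54 (adjusted p = 0.0735, SE 0.17). With Ad-Hif1a it passed without Ad-Hif2a replicate 3 (adjusted p = 0.039), and with Ad-Hif2a it passed with no replicate block (adjusted p = 0.0292).

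No glutamate carrier of the 3 tested passed in either comparison. Slc1a3 had log2 fold changes of -0.37 (adjusted p = 0.355) and -0.56 (adjusted p = 0.145), with Ad-C at 62.4 to 68.3 CPM and the vector libraries at 33.4 to 62.9 CPM. Slc1a6 (EAAT4) was at 15.01 to 18.5 CPM in Ad-C, 16.1, 10.8 and 8.19 CPM with Ad-Hif1a and 6.89, 6.68 and 17.03 CPM with Ad-Hif2a. The 2 vector libraries at Ad-C level were those that stood apart. Its log2 fold changes were -0.50 (adjusted p = 0.439) and -0.79 (adjusted p = 0.198), and without these libraries -0.80 (adjusted p = 0.00506) and -1.32 (adjusted p = 7.44e-05). Without Ad-Hif2a replicate 3 alone they were -0.56 (adjusted p = 0.0446) and -1.39 (adjusted p = 0.00179). Here too the libraries left out were those nearest to Ad-C, so these fits do not test the fall of Slc1a6. Slc1a3 passed with Ad-Hif1a without Ad-Hif2a replicate 3 (adjusted p = 0.0475). Slc1a2 (GLT1) lay between 0.437 and 2.10 CPM, at -1.02 (adjusted p = 0.295) and -0.38 (adjusted p = 0.621), and passed with Ad-Hif1a without Ad-Hif1a replicate 3 (-1.84, adjusted p = 0.0403). That replicate was the highest of its group, so leaving it out enlarges the fall by construction.

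Of the sodium-coupled neutral carriers 7 were tested, and Slc38a4 and Slc38a7 fell. Slc38a4 (SNAT4), an imprinted gene whose product imports small neutral amino acids, was at 40.2, 39.9 and 40.7 CPM in Ad-C, 13.1, 16.3 and 16.1 CPM with Ad-Hif1a and 13.0, 18.5 and 12.9 CPM with Ad-Hif2a. No vector library came near the Ad-C libraries, which lay within 1 CPM of each other. The log2 fold changes were -1.42 (adjusted p = 0.00316, SE 0.18) and -1.46 (adjusted p = 0.00222, SE 0.18). Both calls held in each of the 18 alternatives run, including each of the 9 libraries left out.

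Slc38a7 (SNAT7), which exports glutamine and asparagine from the lysosome, was at 34.9, 31.0 and 33.9 CPM in Ad-C, 20.15, 16.04 and 14.09 CPM with Ad-Hif1a and 22.8, 20.6 and 31.2 CPM with Ad-Hif2a. The Ad-Hif1a libraries lay below all others, and Ad-Hif2a replicate 3 reached into the Ad-C range. It fell with Ad-Hif1a, at -0.99 (adjusted p = 0.0256, SE 0.21), and stood at -0.43 with Ad-Hif2a (adjusted p = 0.186, SE 0.21). The fall with Ad-Hif1a was not called without Ad-C replicates 1, 2 and 3 (adjusted p = 0.143, 0.118 and 0.12) or Ad-Hif1a replicates 1 and 2 (0.0509 and 0.129), and the Ad-Hif2a difference was called without Ad-Hif2a replicate 3 (-0.67, adjusted p = 0.0104). That library was the nearest of its group to Ad-C, so leaving it out enlarges the difference by construction.

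The other 5 SNAT genes did not pass. Slc38a2 was at 256, 272 and 274 CPM in Ad-C, 177, 246 and 327 CPM with Ad-Hif1a and 230, 283 and 138 CPM with Ad-Hif2a. The vector libraries lay on both sides of Ad-C, and the lowest of each vector group was the library that stood apart. Its log2 fold changes were -0.10 (95% interval -0.81 to 0.61) and -0.31 (-1.03 to 0.40). Slc38a1 (SNAT1), a glutamine importer, was at 58.4, 56.3 and 62.6 CPM in Ad-C, 31.0, 38.2 and 48.4 CPM with Ad-Hif1a and 40.5, 51.3 and 24.3 CPM with Ad-Hif2a. All 6 vector libraries were lower, at -0.60 (adjusted p = 0.243, SE 0.29) and -0.63 (adjusted p = 0.173, SE 0.29). With Ad-Hif1a, Slc38a1 passed without Ad-Hif2a replicate 3 (adjusted p = 0.00476). Slc38a9, the lysosomal arginine sensor of the mTORC1 pathway, was at 7.50, 10.2 and 7.91 CPM in Ad-C, 6.57, 8.37 and 8.19 CPM with Ad-Hif1a and 6.60, 6.57 and 7.13 CPM with Ad-Hif2a, with log2 fold changes of -0.14 (adjusted p = 0.639, SE 0.19) and -0.32 (adjusted p = 0.251, SE 0.19). Slc38a10 had log2 fold changes of 0.26 and 0.30 (adjusted p = 0.358 and 0.237). Slc38a6 lay between 19.97 and 31.1 CPM, at 0.36 and 0.45 (adjusted p = 0.176 and 0.0818). For both genes all vector libraries lay above Ad-C.

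Among the proton-coupled carriers Slc36a2 went from near absence to a low level. Slc36a2 (PAT2) carries proline, glycine and alanine with protons. It was at 0.0552, 0.168 and 0.214 CPM in Ad-C, 3.40, 3.37 and 3.79 CPM with Ad-Hif1a and 8.19, 6.17 and 5.24 CPM with Ad-Hif2a. Every Ad-Hif2a library lay above every Ad-Hif1a library, and these above Ad-C. The pooled counts were 8 in Ad-C, 179 with Ad-Hif1a and 319 with Ad-Hif2a, so the depth-scaled ratios were 24 (95% exact interval, counting error only, 11.9 to 56.5) and 45.2 (22.7 to 106). The fitted log2 fold changes were 4.52 (adjusted p = 0.0011, SE 0.43) and 5.41 (adjusted p = 0.000414, SE 0.42), and both calls held in each of the 17 alternatives that tested the gene. It had passed the filter only through the vector libraries, where it is high. The alternative requiring at least 10 counts in every library left it out. The lysosomal carrier Slc36a1 (PAT1) had log2 fold changes of -0.08 and -0.30 (adjusted p = 0.825 and 0.302), and Slc36a4 of -0.41 and -0.55 (adjusted p = 0.331 and 0.165). Slc36a4 passed with Ad-Hif1a without Ad-Hif2a replicate 3 (adjusted p = 0.0261).

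None of the 3 Slc43a carriers passed in the main edgeR model, and Slc43a2 did in some alternatives, with and without the replicate number. Slc43a2 (LAT4), a facilitative exporter of leucine, phenylalanine and methionine, came nearest, at 43.3 to 44.1 CPM in Ad-C, 31.2, 25.7 and 24.3 CPM with Ad-Hif1a and 25.6, 28.6 and 34.6 CPM with Ad-Hif2a. No vector library reached the Ad-C range. Its log2 fold changes were -0.69 (adjusted p = 0.0511, SE 0.18) and -0.56 (adjusted p = 0.0751, SE 0.18). Without Ad-Hif2a replicate 3 the adjusted p was 0.00212 and 0.00616, and without Ad-Hif1a replicate 3 the Ad-Hif2a value was 0.046. Ad-Hif2a replicate 3 was the nearest of its group to Ad-C, so leaving it out enlarges the Ad-Hif2a difference by construction. The adjusted p was 0.0136 and 0.027 with no replicate block, and 0.0102 and 0.0406 with DESeq2, which kept the replicate number as a term. Slc43a2 overlaps Gm45606, at 13 to 26 counts, on the opposite strand. Slc43a1 (LAT3) had log2 fold changes of -0.09 and -0.65 (adjusted p = 0.883 and 0.215), and Slc43a3 of -0.34 and -0.01 (adjusted p = 0.477 and 0.98).

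In the Slc6a family, which couples uptake to sodium and chloride, 3 of 6 tested genes passed with Ad-Hif1a and 2 of 6 with Ad-Hif2a, against 11.3% and 15.6% of all genes. Slc6a17, a vesicular carrier of proline, glycine and leucine known from neurons, rose with both vectors, from 2.70, 1.91 and 3.15 CPM in Ad-C to 6.28, 6.33 and 6.89 CPM with Ad-Hif1a and 10.8, 7.31 and 7.93 CPM with Ad-Hif2a. The 3 groups did not overlap. The log2 fold changes were 1.35 (adjusted p = 0.0117, SE 0.23) and 1.75 (adjusted p = 0.00333, SE 0.23). The Ad-Hif2a call held without each library, and the Ad-Hif1a call was lost without Ad-C replicates 1 and 2 (adjusted p = 0.0952 and 0.0801) and Ad-Hif1a replicate 2 (0.0873).

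Slc6a8, the creatine carrier, was at 51.7, 47.1 and 51.8 CPM in Ad-C, 66.1, 69.7 and 83.8 CPM with Ad-Hif1a and 92.1, 85.9 and 71.9 CPM with Ad-Hif2a. Both vector groups lay above Ad-C, and it rose with Ad-Hif2a at a log2 fold change of 0.73 (adjusted p = 0.0278, SE 0.17). With Ad-Hif1a the value was 0.54 (adjusted p = 0.0878, SE 0.17), which passed without Ad-Hif2a replicate 3 (adjusted p = 0.00454) and with no replicate block (0.0293). The Ad-Hif2a call was lost without Ad-C replicates 1, 2 and 3 (adjusted p = 0.156, 0.125 and 0.135), Ad-Hif1a replicate 2 (0.0709) and Ad-Hif2a replicates 1 and 2 (0.116 and 0.0825).

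Slc6a12 (BGT1), which takes up the osmolyte betaine and GABA, fell with Ad-Hif1a. It was at 7.12, 6.05 and 5.72 CPM in Ad-C, 1.98, 3.25 and 2.11 CPM with Ad-Hif1a and 5.83, 5.31 and 4.15 CPM with Ad-Hif2a. The Ad-Hif1a libraries lay below all 6 others, while the Ad-Hif2a libraries overlapped with Ad-C. The log2 fold changes were -1.37 (adjusted p = 0.0138, SE 0.25) and -0.31 (adjusted p = 0.368, SE 0.24). The Ad-Hif1a call was lost without Ad-C replicates 1 and 3 (adjusted p = 0.103 and 0.0952) and Ad-Hif1a replicate 1 (0.0643).

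Slc6a2, the noradrenaline carrier, was at 0.331, 0.616 and 0.748 CPM in Ad-C, 1.47, 1.74 and 1.37 CPM with Ad-Hif1a and 0.825, 1.09 and 1.60 CPM with Ad-Hif2a. The vector libraries were above Ad-C, all at low counts. It had passed the filter with the help of the vector libraries, and its call was at the threshold, with a log2 fold change with Ad-Hif1a of 1.48 (adjusted p = 0.0494, SE 0.38) and of 1.04 with Ad-Hif2a (adjusted p = 0.112, SE 0.39). The call was lost with no filter on low counts (adjusted p = 0.0699), with upper-quartile scaling (0.0516), without each of Ad-C replicates 1, 2 and 3, Ad-Hif1a replicates 1 and 2 and Ad-Hif2a replicates 1 and 2 (adjusted p = 0.0799 to 0.266) and without both libraries that stood apart (0.0585). Slc6a6, the abundant taurine carrier, had log2 fold changes of -0.14 and -0.22 (adjusted p = 0.763 and 0.589), with its lowest value, 103 CPM, in Ad-Hif2a replicate 3. Slc6a9 (GLYT1), a glycine carrier, lay between 11.4 and 15.1 CPM throughout, at 0.17 and 0.25 (adjusted p = 0.513 and 0.283).

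**Figure D3:**
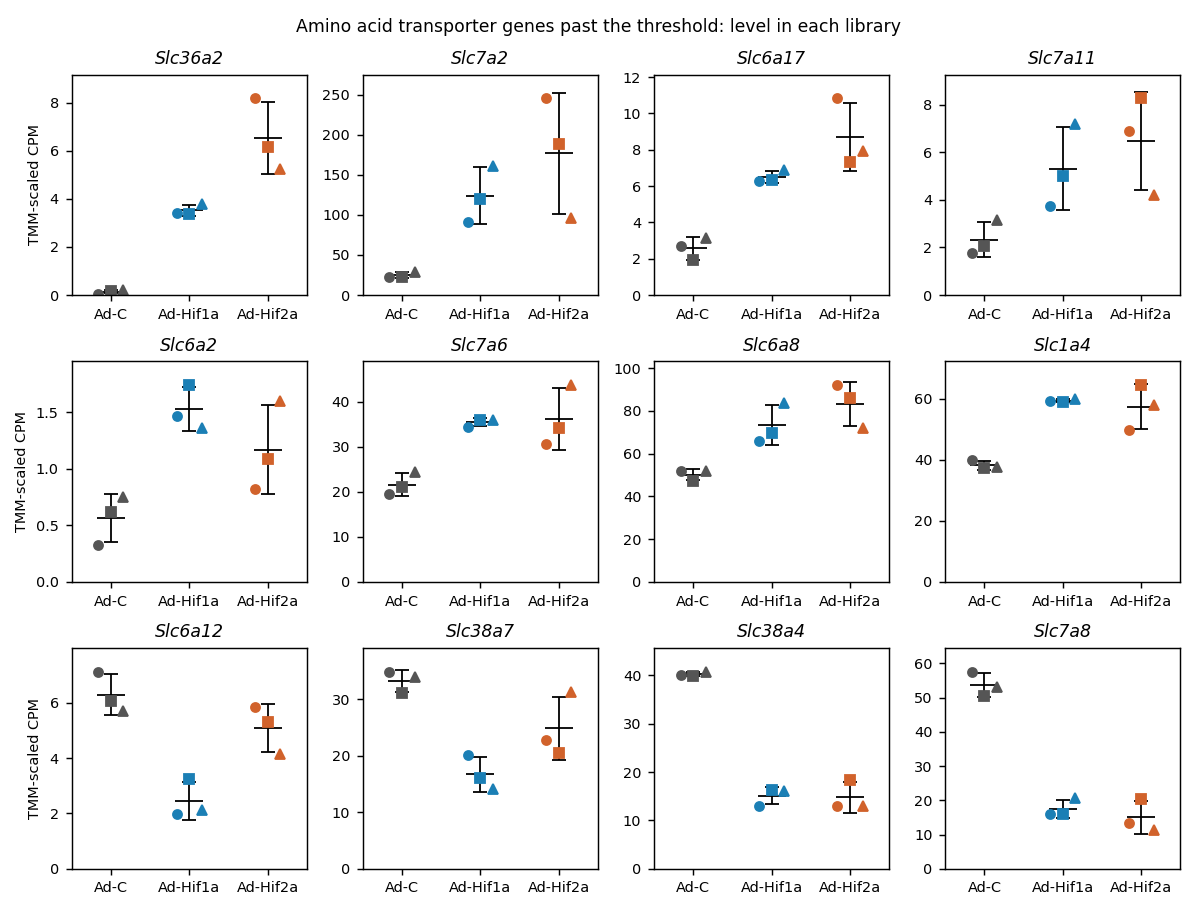
TMM-scaled CPM in each library of the 12 carriers past the threshold in either comparison with Ad-C, with circles, squares and triangles for replicates 1, 2 and 3 and the mean ± SD of each group (n = 3) in black. Slc7a2 runs from 22.5 to 29.2 CPM in Ad-C and from 91.1 to 246 CPM in the vector libraries, and Slc7a8 runs from 50.5 to 57.5 CPM in Ad-C and from 11.2 to 20.6 CPM in the vector libraries.

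The vectors were also compared with each other directly. None of the 34 carriers passed between Ad-Hif2a and Ad-Hif1a with edgeR, and none of all genes tested did (0% called). The genes not called included Hif1a and Epas1, which the vectors themselves carried. A lack of calls here therefore does not show that a carrier responded alike to both vectors. At an unadjusted p under 0.05 there were 3 carriers and 338 genes (2.35% of all tested). DESeq2 called 19 genes, no carrier among them, and had 3 carriers at an unadjusted p under 0.05. The 3 with edgeR were Slc6a12, at a difference of 1.06 on the log2 scale (95% interval 0.48 to 1.64), Slc36a2 at 0.89 (0.18 to 1.59) and Slc38a7 at 0.56 (0.07 to 1.05), all higher with Ad-Hif2a. For these 3 and Slc6a17 every Ad-Hif2a library lay above every Ad-Hif1a library, for Slc7a3 every one lay below, where 3.07% of all genes lay above and 3.21% below in this way, 6.27% in all. Slc7a2 differed by 0.51 (-0.39 to 1.41), Slc6a17 by 0.40 (-0.12 to 0.93), Slc7a11 by 0.34 (-0.50 to 1.18) and Slc7a8 by -0.24 (-0.83 to 0.34), intervals that allow a difference in either direction. The other 27 carriers had differences from -1.02 (Slc7a3) to 0.64 (Slc1a2).

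**Figure D4:**
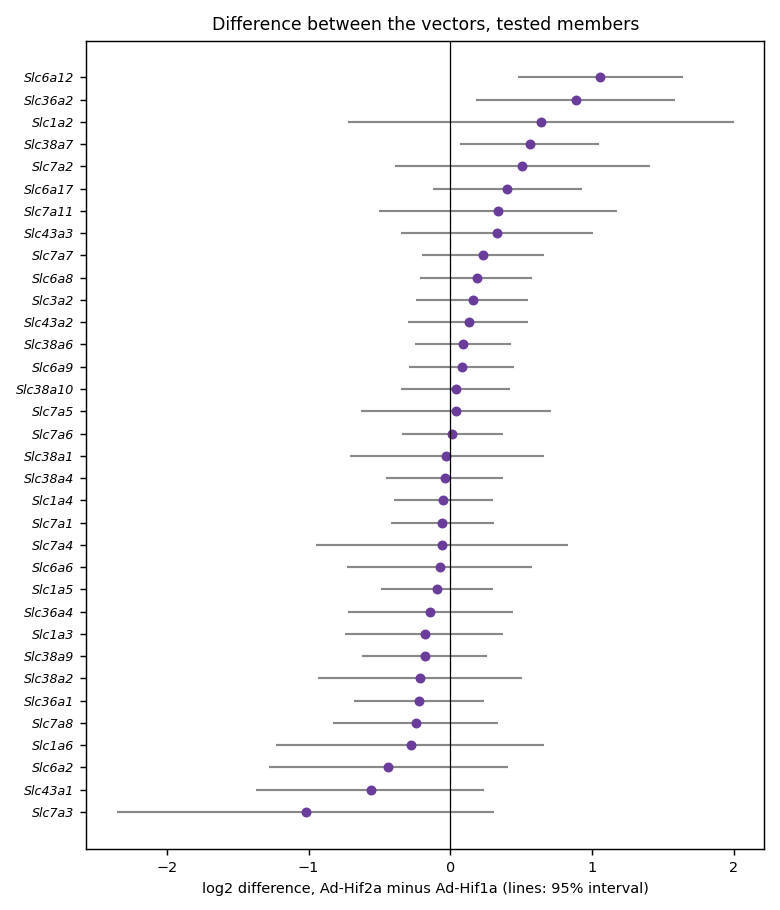
Log2 difference between Ad-Hif2a and Ad-Hif1a (points) with its 95% interval (lines) for the 34 tested carriers, ordered by size. The intervals of Slc6a12, Slc36a2 and Slc38a7 lie above 0, and those of the others span it.

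Around the carriers, the list on amino acid use held the largest rises. Of 30 tested genes for the use of arginine, glutamine, cystine, tryptophan and branched-chain amino acids, 5 rose with Ad-Hif1a and 7 with Ad-Hif2a, and none fell (6.04% and 7.87% of all genes were called higher, and the list's medians were 0.14 and 0.32 on the log2 scale). Nos2, Arg2, Arg1 and Gldc were below the filter level of 0.573 CPM in every Ad-C library and were tested through the vector libraries, where they are high. Apart from these genes, the calls of the list were Ass1 and Odc1 with each vector and Cdo1 with Ad-Hif2a. With at least 10 counts required in every library, the calls over the 4 related lists went from 13 to 10 with Ad-Hif1a and from 15 to 11 with Ad-Hif2a. Nos2, the inducible nitric oxide synthase, was at 0.267 to 0.336 CPM in Ad-C, 12.1, 17.5 and 17.2 CPM with Ad-Hif1a and 96.1, 45.4 and 27.2 CPM with Ad-Hif2a, at log2 fold changes of 5.69 (adjusted p = 0.00123, SE 0.55) and 7.37 (adjusted p = 0.000409, SE 0.57). Ass1, which rebuilds arginine from citrulline, went from 65.7 to 71.8 CPM in Ad-C up to 418 to 444 CPM in the Ad-Hif1a libraries and 550 to 681 CPM with Ad-Hif2a, at 2.65 (adjusted p = 0.000202, SE 0.15) and 3.21 (adjusted p = 9.93e-05, SE 0.15). Odc1, which makes putrescine from ornithine, had 1.83 (adjusted p = 0.000429, SE 0.14) and 1.98 (adjusted p = 0.00025, SE 0.14). Arg2, the mitochondrial arginase, had 3.41 (adjusted p = 0.0111, SE 0.58) and 4.42 (adjusted p = 0.00273, SE 0.56) from 0.0534 to 0.276 CPM in Ad-C. The Ad-Hif1a call of Arg2 was lost without Ad-C replicates 2 and 3 (adjusted p = 0.0655 and 0.0704) and Ad-Hif1a replicate 2 (0.0614). Arg1, the cytosolic arginase, had no count in Ad-C and 157 with Ad-Hif2a, at least 57.4-fold higher against 3 counts over the Ad-C group. It passed with Ad-Hif2a (adjusted p = 0.0209), but not without Ad-C replicates 1, 2 and 3 (0.0925, 0.0515 and 0.0719) or Ad-Hif2a replicate 2 (0.0549). The others were Gldc, of the glycine cleavage system, at 3.45 (adjusted p = 0.00827) and 2.71 (adjusted p = 0.0196), and, with Ad-Hif2a, Cdo1, which oxidises cysteine, at 0.98 (adjusted p = 0.00648); like Arg1 they were named after their values were seen. Gldc lost its calls without Ad-C replicates 1 and 3 (0.0668 and 0.0571, and 0.132 and 0.0876 for the vectors in turn), with Ad-Hif1a replicate 2 left out (0.054), or Ad-Hif2a replicates 1 and 2 in turn (0.0871 and 0.0514), and Cdo1 without Ad-C replicates 1 and 2 (0.0714 and 0.0515). For Nos2, Ass1, Odc1 and Arg2, as for the arginine carrier Slc7a2, all 6 vector libraries lay above Ad-C. Of all genes, 24.5% lay wholly higher in this way with Ad-Hif1a and 24% with Ad-Hif2a. These list genes were named by adjusted p, and Slc7a1, the other arginine carrier described above, lay below Ad-C without passing. A link between these genes was not tested.

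Of 37 tested synthesis genes and ATF4 targets 3 rose and none fell with each vector, a share of risen genes near that of all genes (6.04% and 7.87% called higher). They were the transcription factor gene Cebpb (2.69, adjusted p = 0.00184, SE 0.29, and 3.15, adjusted p = 0.00082, SE 0.29), the stress gene Nupr1 (2.11, adjusted p = 0.00101, SE 0.20, and 2.09, adjusted p = 0.000847, SE 0.20) and the mTORC1 inhibitor gene Ddit4 (0.69, adjusted p = 0.0408, SE 0.17, and 0.95, adjusted p = 0.0103, SE 0.17). None of the 3 is an enzyme of synthesis, and the list had medians of 0.11 and 0.02. The Ddit4 call with Ad-Hif1a was lost without each of Ad-C replicates 1, 2 and 3, Ad-Hif1a replicates 1 and 2 and Ad-Hif2a replicates 1 and 2 (adjusted p = 0.0562 to 0.268), and with Ad-Hif2a without Ad-C replicates 1 and 3 (0.092 and 0.0588) and Ad-Hif2a replicate 1 (0.054).

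Of 26 tested genes of amino acid sensing by mTORC1, 2 fell and none rose with each vector, where 5.22% and 7.72% of all genes were called lower (medians over the list -0.15 and -0.06). Sesn1, a sestrin, had -1.56 (adjusted p = 0.0069, SE 0.23) and -1.67 (adjusted p = 0.00418, SE 0.23), from 38.9 to 39.8 CPM in Ad-C to 9.17 to 16.1 CPM in the vector libraries. Rragd, a Rag GTPase that recruits mTORC1 to the lysosome, had -0.86 (adjusted p = 0.0259, SE 0.18) and -0.76 (adjusted p = 0.0317, SE 0.18). The Sesn1 call with Ad-Hif1a was lost without Ad-C replicates 1 and 3 (adjusted p = 0.0595 and 0.0585) and Ad-Hif1a replicate 2 (0.0608). The Rragd calls were lost with Ad-Hif1a without each of Ad-C replicates 1, 2 and 3 and Ad-Hif1a replicates 1 and 2 (0.107 to 0.185), and with Ad-Hif2a without each library but Ad-Hif1a replicate 3 and Ad-Hif2a replicate 3 (0.0525 to 0.203).

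Of 14 other amino acid and peptide carriers, 1 rose and 2 fell with each vector (medians over the list -0.10 and -0.06), where 6.04% and 7.87% of all genes were called higher and 5.22% and 7.72% lower. Slc15a3, a lysosomal peptide and histidine carrier, rose by 2.02 (adjusted p = 0.00638, SE 0.30) and 2.39 (adjusted p = 0.00269, SE 0.30). Ctns, which exports cystine from the lysosome, had -0.98 (adjusted p = 0.00724, SE 0.15) and -0.86 (adjusted p = 0.0097, SE 0.15), and Slc16a10 (TAT1), a carrier of aromatic amino acids, had -1.05 (adjusted p = 0.0335, SE 0.24) and -1.10 (adjusted p = 0.0232, SE 0.24). With Ad-Hif1a the Slc15a3 call was lost without Ad-C replicates 1 and 3 and Ad-Hif1a replicate 2 (adjusted p = 0.0598, 0.0551 and 0.0514), and the Ctns call without Ad-C replicates 1, 2 and 3 and Ad-Hif1a replicate 2 (0.0638, 0.0509, 0.0679 and 0.0816). With Ad-Hif2a Ctns lost its call without Ad-C replicates 1, 2 and 3 (0.0716, 0.0565 and 0.0763). Slc16a10 lost its calls without each Ad-C replicate, Ad-Hif1a replicate 2 and Ad-Hif2a replicate 1 in both comparisons and, with Ad-Hif1a, without Ad-Hif1a replicate 1 and Ad-Hif2a replicate 2 (0.0501 to 0.195).

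**Figure D5:**
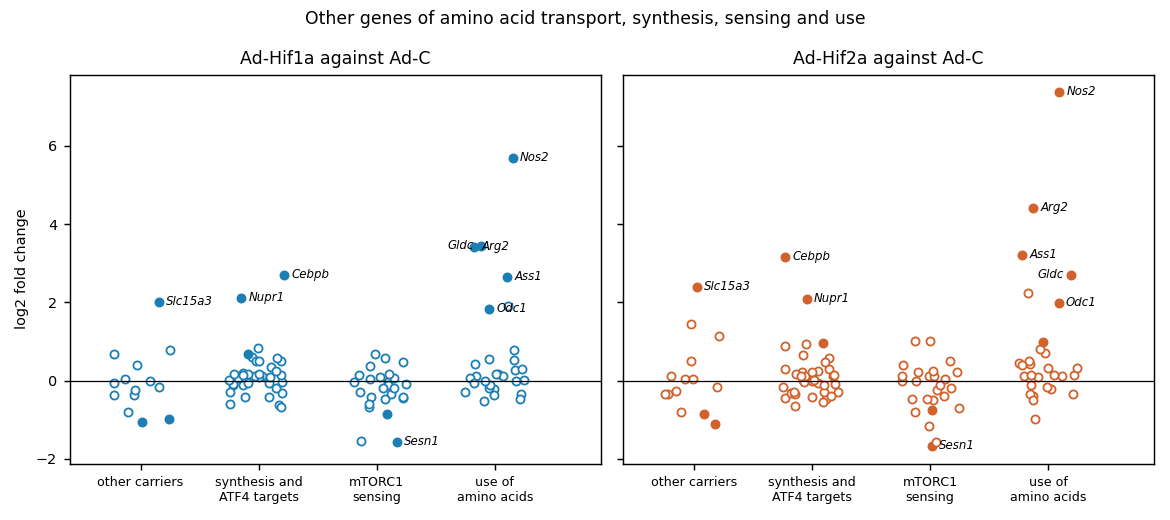
Log2 fold changes against Ad-C (left panel Ad-Hif1a, right panel Ad-Hif2a) of the tested genes of 4 lists on amino acid transport, synthesis, sensing and use, 1 point for a gene, with filled points at an adjusted p under 0.05. Arg1, with no count in Ad-C, is not drawn, and the filled points of the list on use reach highest, with Nos2 at 5.69 and 7.37.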

How the data were processed

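RNA of 9 samples (3 per group) was sequenced by the authors with a CORALL kit. Per the labels, the submitters' processing notes name bcl2fastq 2.20.0.422, fastp, STAR and Salmon and the build GRCm39; the strand setting and the handling of molecular tags are not given in the sources used here. The deposited files hold whole-number read counts per gene, not normalized. The counts were tested as deposited, over all 40213 genes together, with edgeR 4.0.16 in R 4.3.3 (limma 3.58.1). Genes were kept by filterByExpr (minimum count 10, total 15), which left 14413, and scaled by TMM. The quasi-likelihood model had group and replicate number as terms, because the authors used a paired test, and p-values were Benjamini-Hochberg adjusted over all genes tested, with a threshold of 0.05. All 9 libraries shared 1 estimate of the spread, though the groups differed in it. Chi-square per degree of freedom between library pairs was 5.39 to 8.55 in Ad-C, 26.8 to 94.9 in Ad-Hif1a and 30.3 to 185 in Ad-Hif2a. A library of 1 vector group, such as Ad-Hif2a replicate 3, therefore also bears on the p-values of the other vector. The 95% intervals of differences come from this fit, and those of pooled counts are exact and cover counting error only. The test was also run on simulated counts drawn with the same spread in every group. That check does not cover the unequal spread of these groups. No pair of libraries held identical counts.

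The members were all genes matching the 7 family names. The summed count of 1 of the 27 members below the filter is not reported here. Named with a value in every library were the members past the threshold in any comparison and 8 chosen for their roles (Slc7a5, Slc3a2, Slc7a11, Slc1a5, Slc7a1, Slc38a1, Slc38a2 and Slc38a9). Up to 3 others per role group were named by mean CPM, and up to 4 genes per related list by adjusted p; Arg1, Gldc and Cdo1 were added after their values were seen. The members and lists were chosen with earlier results of these data known. Alternatives were DESeq2 1.42.0, no replicate block, other scalings and filters, only the 6 libraries compared, and libraries left out. Gene positions on GRCm39 were not used here.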

Additional observations from a re-analysis of the deposited data

How the results depend on the processing

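With only the 6 libraries compared, 17 carriers passed with Ad-Hif1a, and without both libraries that stood apart (Ad-Hif1a replicate 1, Ad-Hif2a replicate 3) 14 passed with Ad-Hif2a. Leaving out 1 library at a time, 2 to 20 carriers passed with Ad-Hif1a, 5 to 14 with Ad-Hif2a and 0 to 0 between the vectors. Of the genes of the 4 related lists, 13, 15 and 0 passed in the 3 comparisons. These counts became 30 (Ad-Hif1a) with only the 6 libraries, 24 (Ad-Hif2a) with no replicate block, 27 (Ad-Hif2a) and 1 (between the vectors) with DESeq2, and 28, 32 and 1 without both libraries that stood apart. With 1 library left out they ran from 5 to 39, 8 to 22 and 0 to 1. With only the 6 libraries compared the Ad-Hif2a calls of Slc6a8 (adjusted p = 0.052), Slc7a11 (0.0603) and Rragd (0.0808) were lost, while with Ad-Hif1a Slc7a5 (0.016), Slc38a1 (0.0122), Slc36a4 (0.0446), Slc43a2 (0.00517), Slc6a8 (0.0096), Slc7a11 (0.00264) and Cdo1 (0.0202) passed. With no filter on low counts Ddit4 with Ad-Hif1a (0.0569) and Rragd with Ad-Hif2a (0.0548) lost theirs. With DESeq2, Slc6a8 (0.0382), Slc7a11 (0.0268), Arg1 (0.0158) and Cdo1 (0.0325) passed with Ad-Hif1a. With upper-quartile or no composition factors Slc43a2 passed with Ad-Hif1a (0.0456 and 0.0443). The targeted genes passed in all alternatives run.

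Same-numbered libraries did not deviate together: the 9 pairs had correlations of -0.575 to 0.098, against -0.569 to 0.61 for the other 18 pairs, so the number is no evidence of pairing. With no replicate block 13, 12 and 0 carriers passed, and with DESeq2, which kept the replicate number as a term, 13, 11 and 0. The cause was not tested.

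Fold changes that changed sign were all of carriers that did not pass. With 1 library left out the log2 fold change ran from -0.19 to 0.05 for Slc36a1, -0.50 to 0.13 for Slc38a2, -0.27 to 0.06 for Slc43a1, -0.43 to 0.03 for Slc6a6 and -0.01 to 0.73 for Slc7a4 with Ad-Hif1a. With Ad-Hif2a it ran from -0.53 to 0.04 for Slc38a2, -0.25 to 0.31 for Slc43a3, -0.44 to 0.13 for Slc6a6 and -0.10 to 0.65 for Slc7a4. Without both libraries that stood apart Slc38a2 was at 0.03 (Ad-Hif1a) and 0.02 (Ad-Hif2a), and with Ad-Hif2a Slc43a3 was at 0.29, Slc6a6 at 0.12 and Slc7a4 at -0.11. With at least 10 counts in every library Slc43a3 was at 0 with Ad-Hif2a. Depth limits the low carriers: at 14372589 to 18623403 counts, 3 counts amount to 0.16 to 0.218 CPM.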
